A study of Mus musculus with 2 samples.

Results

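The proteasome is the cell's main protease for proteins tagged with ubiquitin. Its 20S core is a barrel of alpha and beta rings, the 19S cap recognises, unfolds and feeds in substrates, and dedicated chaperones build the particle. The catalytic beta subunits, encoded by Psmb5, Psmb6 and Psmb7, can be replaced by Psmb8, Psmb9 and Psmb10, which form the immunoproteasome. That form is common in lymphocytes, is induced by interferon-gamma, and shapes the peptides presented on MHC class I, together with the PA28 cap made of the Psme1 and Psme2 products.

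All genes whose symbol begins with Psma to Psmg followed by a digit, pseudogenes apart, were taken from the 32285 genes measured, which gave 50 members. Of these, 5 form the immunoproteasome set (Psmb8, Psmb9, Psmb10, Psme1 and Psme2), and 44 form what is named the constitutive set, with 20S and 19S subunits, other activators, the inhibitor and the assembly chaperones. The 44 also include Psmb11 and Psme2b, both described below, and their promoters are among the constitutive windows counted. The remaining member, Psmc3ip, matches by symbol but encodes a recombination factor and no proteasome subunit, and was kept apart. In all, 47 members reached 10 CPM (counts scaled to the same total in each condition) in at least 1 condition of each comparison, 41 of them constitutive. The 3 below that level were Psma8, a testis alpha subunit with at most 2 unique molecular identifiers (UMIs, counts of single RNA molecules) in any condition, Psmb11, the thymic beta subunit with at most 2, and Psme2b, a near-copy of Psme2 at 4.75 to 7.62 CPM, for which reads shared with Psme2 leave the count uncertain.

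The cells were CD8+ T cells from the spleen of wild-type (WT) mice, held for 30 h either rested or with 1 of 5 peptide-MHC (pMHC) stimuli, labelled M9C at 20, 2 or 0.2 pmol and L6F at 80 or 20 pmol. They were isolated from splenocytes, and a later sort kept live cells by propidium iodide, without selecting for CD8. Each of the 6 cultures was marked with its own hashtag antibody, and all were pooled in 1 droplet lane, so that the gene and hashtag libraries share the same 13439 barcodes. There was 1 culture per condition, hence no replicate and no test between conditions, and every interval below is an exact 95% interval that covers counting error only. All 5 comparisons with rested cells share the same rested culture.

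The labels give 22000 sorted cells, 4000 per stimulated condition and 2000 rested, against the 13439 barcodes. After a hashtag margin rule and cell filters, 10600 cells were kept, 755 of them rested and 1589 to 2477 in each stimulated condition. The rested cells held 918920 UMIs in all (median 1056 per cell), against 11376897 to 16014100 (median 6050 to 7114 per cell) in the stimulated conditions, so rested values are the least precise. The filters removed 52.3% of rested cells that carried a clear hashtag and 1.43% to 3.71% of stimulated ones. All 5 CD8 T cell markers (Cd8a, Cd8b1, Cd3d, Cd3e, Cd3g) were present in every condition, with a summed level of 2925 CPM when rested and of 1753 to 1963 CPM when stimulated. Markers of other cells were mostly higher in the rested culture, such as Lyz2 of macrophages or monocytes at 146 CPM against 0.501 to 24.0, the 4 erythroid globin genes summed at 159 CPM against 2.47 to 41.1, and Trdc of gamma-delta T cells at 398 CPM against 52.6 to 96.8, while Siglech, Clec9a, S100a9 and Ppbp had no UMI. The other macrophage or monocyte markers were low in rested cells too, with Csf1r at 1.09 CPM, Cd68 at 3.26 and Adgre1 at 0. Requiring a CD8 T cell marker and at most 1 UMI of other types left the log2 ratio of the constitutive set at 0.84 for M9C at 20 pmol over rested cells, against 0.81 in all kept cells.

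Promoters are shown for 4 members that stand at the ends of the results below: Psmd12 and Psmc5, the 19S subunits with the highest ratios to rested cells, and Psmb8 and Psmb9, whose levels separated M9C from L6F. Psmb10 separated them more than Psmb9 did, but its window held none of the motifs counted below and is not shown. Each is the RefSeq window on GRCm38.p6 from 250 bases before to 50 after the start annotated there, 5′ to 3′ on the gene's strand. The Psmb8 and Psmb9 windows lie wholly inside the spans that GENCODE gives for these genes, downstream of the GENCODE starts. Sequence at those GENCODE starts was not searched. Capitals mark the ETS core CCGGAA (or its reverse complement) in Psmd12 and Psmc5, the gamma activated site TTCNNNGAA in Psmb8, and the antioxidant response element core TGANNNNGC in Psmb9.
Psmd12 (chr11:107479278-107479577, plus strand): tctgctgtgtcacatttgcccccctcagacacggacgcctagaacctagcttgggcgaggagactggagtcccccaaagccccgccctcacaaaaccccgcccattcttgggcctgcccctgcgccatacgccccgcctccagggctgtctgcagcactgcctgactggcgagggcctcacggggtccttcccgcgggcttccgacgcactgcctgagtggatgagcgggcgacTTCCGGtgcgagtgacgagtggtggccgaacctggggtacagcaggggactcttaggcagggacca
Psmc5 (chr11:106255935-106256234, plus strand): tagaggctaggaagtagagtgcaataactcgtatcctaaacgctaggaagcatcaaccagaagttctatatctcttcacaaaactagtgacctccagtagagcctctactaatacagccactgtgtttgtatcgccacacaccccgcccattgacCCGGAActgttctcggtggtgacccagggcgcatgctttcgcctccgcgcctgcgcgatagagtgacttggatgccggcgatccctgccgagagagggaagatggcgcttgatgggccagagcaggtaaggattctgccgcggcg
Psmb8 (chr17:34197945-34198244, plus strand): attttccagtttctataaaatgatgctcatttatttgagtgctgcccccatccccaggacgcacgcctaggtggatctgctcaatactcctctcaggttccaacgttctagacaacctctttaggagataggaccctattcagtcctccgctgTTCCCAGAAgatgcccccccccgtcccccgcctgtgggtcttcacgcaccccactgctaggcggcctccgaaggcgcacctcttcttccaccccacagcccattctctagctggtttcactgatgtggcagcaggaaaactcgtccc
Psmb9 (chr17:34187281-34187580, minus strand): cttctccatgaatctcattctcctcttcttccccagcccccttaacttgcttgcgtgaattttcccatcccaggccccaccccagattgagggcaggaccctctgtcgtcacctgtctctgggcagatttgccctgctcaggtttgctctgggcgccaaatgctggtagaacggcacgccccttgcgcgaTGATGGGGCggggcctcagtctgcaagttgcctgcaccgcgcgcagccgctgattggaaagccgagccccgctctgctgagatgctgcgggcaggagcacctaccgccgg
Of the 50 members, 42 had a promoter in the table, with 45 windows in all because some genes have 2 starts. Searched on both strands, the ETS core stood in 21 of 38 constitutive windows (55.3%) and in 0 of 6 immunoproteasome windows, against 14.9% of all 32851 windows in the table. The antioxidant response element core, the type of site used by Nfe2l1 and Nfe2l2, stood in 21 of 38 constitutive (55.3%) and 4 of 6 immunoproteasome windows, against 41.3% of all windows. The interferon stimulated response element core GAAANNGAA stood in 6 of 38 and 1 of 6 (the Psme1 window) against 8.56%, the gamma activated site in 2 of 38 and 1 of 6 (Psmb8) against 8.30%, and the NF-Y box CCAAT in 13 of 38 and 1 of 6 (Psmb9) against 37.4%. A match describes the letters in these windows and shows no binding.

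The first question was how the levels of proteasome genes in stimulated cells compared with those in rested cells. Summed over the constitutive set, rested cells stood at 6737 CPM and the 5 stimulated conditions at 11627 to 11984 CPM, which lay close together and all above the rested value. The sum was 1.75-fold that of rested cells (interval 1.71 to 1.80) with M9C at 20 pmol, 1.78-fold at 2 pmol and at 0.2 pmol, and 1.73-fold and 1.74-fold with L6F at 80 and 20 pmol. A member was counted as higher or lower where its CPM ratio passed 1.5-fold and its interval excluded 1. With M9C at 20 pmol 29 of the 41 measured constitutive genes were higher and 0 were lower, where 27.3% of all genes were higher and 22.9% lower. The counts were 29 higher and 0 lower at 2 pmol (27.0% and 23.7% of all genes) and the same at 0.2 pmol (26.8% and 23.7%). With L6F they were 29 and 0 at 80 pmol (24.0% and 20.9% of all genes) and 28 and 0 at 20 pmol (25.0% and 21.8%). The median log2 ratio of the 41 genes lay between 0.84 and 0.93, beside 0.07 to 0.10 for all genes measured.

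**Figure D1:**
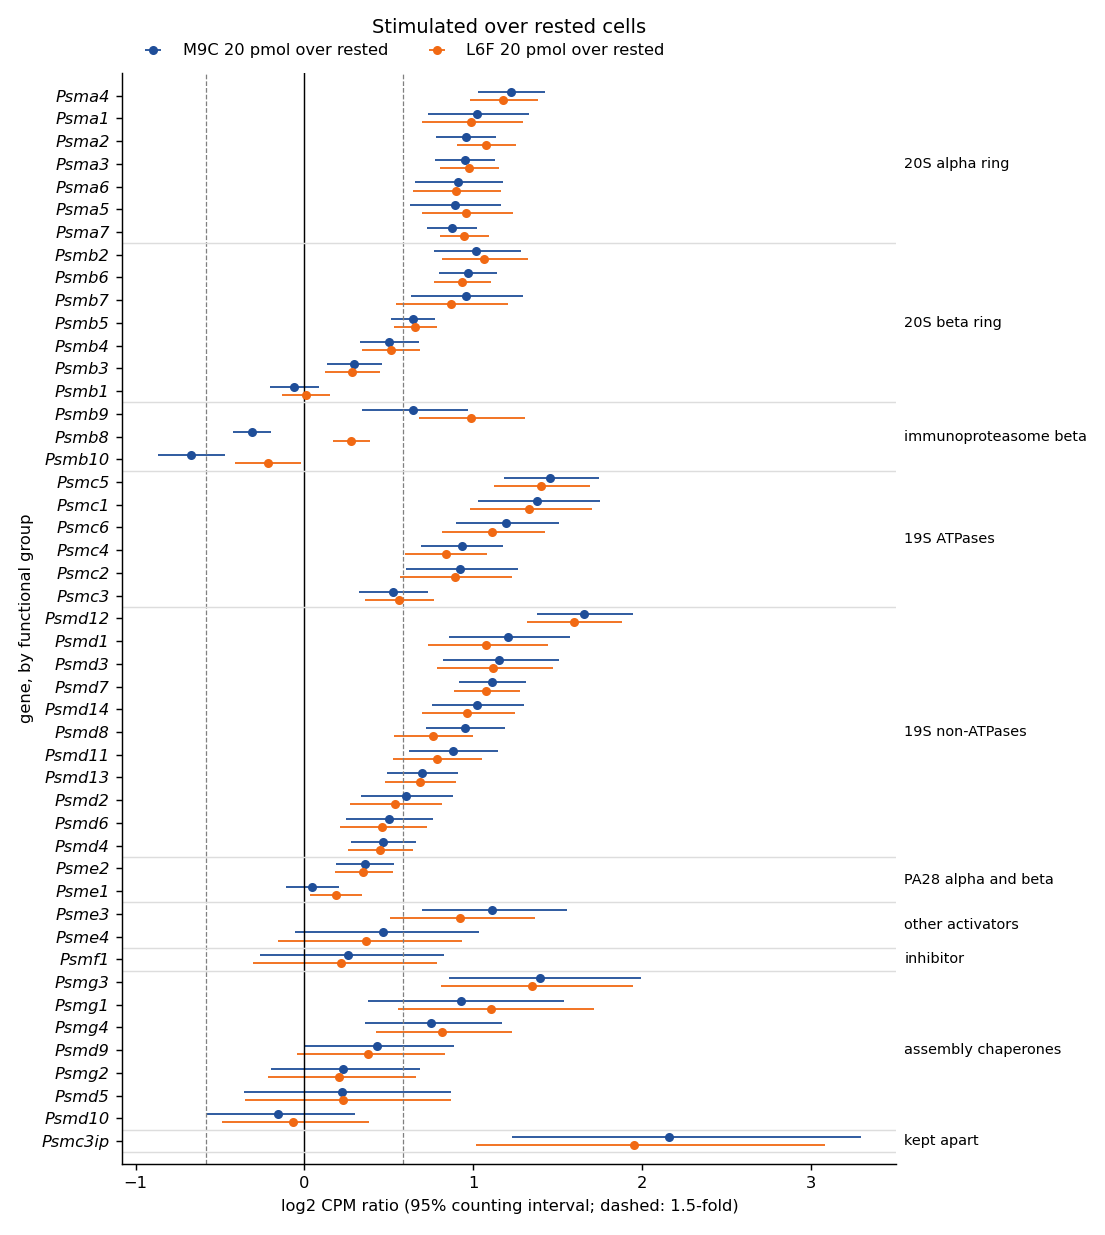
Log2 CPM ratio (x axis) of each measured member (y axis, by functional group) for M9C at 20 pmol over rested cells (blue) and L6F at 20 pmol over rested cells (orange), with 95% counting intervals; both share the rested cells. Most 20S and 19S genes lie right of 1.5-fold (dashed) in both colours, while Psmb8 lies left of 0 in blue (-0.31) and right of 0 in orange (0.28).

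The size of this difference moved with the cells compared. Stimulated cells held more RNA counts in all, with total UMIs per cell 2.36 to 2.56 higher on the log2 scale, and per cell the constitutive set was 8.86-fold to 10.5-fold that of rested cells. In cells of like depth, with 2000 to 4000 UMIs, the constitutive set stood at 7852 CPM when rested (41 cells) and at 10794 to 11359 CPM when stimulated, a ratio of 1.41 (1.31 to 1.52) for M9C at 20 pmol. A minimum of 1000 genes per cell left 47 rested cells with 145311 UMIs. It lowered the log2 ratio from 0.81 to 0.47 with M9C at 20 pmol and from 0.80 to 0.46 with L6F at 20 pmol. The number of members called higher among all 47 measured fell from 30 or 31 to 9 to 16, and the share of all genes called at that minimum was not computed. The part of depth per cell in the ratio of all kept cells was not tested beyond these values.

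The 20S alpha ring, the outer ring that gates entry to the core, was higher as a whole: all 7 measured genes were called higher with M9C and with L6F at 20 pmol, with a summed ratio of 1.96 (1.86 to 2.07) and 2.02 (1.92 to 2.12). Beside the calls by functional group here and below, 27.3% of all genes were higher with M9C and 25.0% with L6F at 20 pmol. Psma4 had the highest ratio of the ring. It stood at 234 CPM in rested cells and 547, 565 and 552 CPM with M9C at 20, 2 and 0.2 pmol, and 531 and 530 CPM with L6F at 80 and 20 pmol. All 5 stimulated values lay close together, above the rested one, and the ratio was 2.34 (2.04 to 2.69) with M9C at 20 pmol. Psma7, the lowest of the ring with M9C at 20 pmol, stood at 426 CPM in rested and 780 to 828 CPM in stimulated cells, a ratio of 1.83 (1.66 to 2.03) with M9C at 20 pmol.

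The 20S beta ring, which holds the proteolytic sites, was uneven. Of its 7 constitutive genes 4 were called higher with M9C and with L6F at 20 pmol (Psmb2, Psmb5, Psmb6 and Psmb7), and Psmb1, Psmb3 and Psmb4 were not. Psmb2 stood at 143 CPM when rested and at 289 to 298 CPM when stimulated, a ratio of 2.03 (1.70 to 2.43) with M9C at 20 pmol. Psmb1, which encodes a structural beta subunit, stood at 470 CPM in rested cells, at 451, 450 and 462 CPM with M9C at 20, 2 and 0.2 pmol, and at 490 and 472 CPM with L6F at 80 and 20 pmol. Its ratios of 0.957 to 1.04 all had intervals that included 1, the M9C ones change sign with TMM scaling, and its neighbours in the same ring had higher ratios. Psmb5, the subunit with chymotrypsin-like activity and the target of bortezomib, stood at 543 CPM in rested and 833 to 856 CPM in stimulated cells. Psmb6, with caspase-like activity, stood at 317 and 588 to 638 CPM, and Psmb7, with trypsin-like activity, at 87.1 and 156 to 170 CPM. With a minimum of 1000 genes per cell the log2 ratio of Psmb7 for M9C at 20 pmol turned from 0.96 to -0.08.

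The 6 ATPases of the 19S base, the ring that unfolds substrates, had a summed ratio of 2.01 (1.87 to 2.17) with M9C at 20 pmol, and 5 were called higher. Psmc5 was the highest, at 116 CPM when rested and 304 to 320 CPM when stimulated. Psmc3 was the lowest and the one not called, at 225 against 324 to 332 CPM, a ratio of 1.44 (1.25 to 1.66) with M9C at 20 pmol. Of the 11 other 19S subunits, 9 were called higher with M9C and 8 with L6F at 20 pmol, and all 11 had intervals above 1 in both. Psmd12, a scaffold subunit of the 19S lid, had the highest ratio of the constitutive set in all 5 comparisons: it stood at 118 CPM in rested cells, at 371, 369 and 388 CPM with M9C at 20, 2 and 0.2 pmol, and at 349 and 355 CPM with L6F at 80 and 20 pmol. That is a ratio of 3.15 (2.61 to 3.85) with M9C at 20 pmol, which fell to a log2 ratio of 0.67 from 1.66 when only cells with 1000 or more genes were used. Psmd4, a ubiquitin receptor, was the lowest of these 11 with M9C at 20 pmol, at 257 against 336 to 377 CPM, and was not called in any comparison.

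Of the 7 assembly chaperones, 3 were called higher and 0 lower with M9C and with L6F at 20 pmol. Of all genes, 27.3% were higher and 22.9% lower with M9C, and 25.0% and 21.8% with L6F. With so few genes, 3 of 7 is not read as a result about the chaperones. Psmg1, Psmg3 and Psmg4, which help build the alpha ring, were called higher with M9C and with L6F at 20 pmol, while Psmg2, the partner of Psmg1, and the 19S base chaperones Psmd5, Psmd9 and Psmd10 were not. Psmg3 stood at 30.5 CPM in rested and 71.2 to 82.9 CPM in stimulated cells, a ratio of 2.63 (1.81 to 3.98) with M9C at 20 pmol. Psmd10, known as gankyrin, stood at 52.2 and 46.9 to 50.2 CPM, and its interval of 0.669 to 1.23 with M9C at 20 pmol includes 1. Of the other activators, Psme3, which forms the nuclear PA28 gamma cap, stood at 52.2 and 93.0 to 119 CPM and was called higher in all 5 comparisons. Psme4, the PA200 cap, stood at 33.7 and 43.4 to 46.5 CPM, and the inhibitor Psmf1 at 33.7 and 39.2 to 43.2 CPM, and neither was called in any. Psmc3ip, which is no subunit, stood at 9.79 CPM in rested cells (9 UMIs) and 37.9 to 43.9 CPM in stimulated cells, a ratio of 4.48 (2.34 to 9.85) with M9C at 20 pmol. With a minimum of 1000 genes per cell its log2 ratio was 0.09 in place of 2.16, against only 47 rested cells and so few rested counts.

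Over all kept cells the immunoproteasome set did not move with the constitutive set. Its summed level was 1847 CPM in rested cells, 1760, 1792 and 1723 CPM with M9C at 20, 2 and 0.2 pmol, and 2258 and 2214 CPM with L6F at 80 and 20 pmol. On this scale the M9C values lay just under the rested one and both L6F values above it. With M9C at 20 pmol the ratio to rested cells was 0.953 (0.907 to 1.00), but this became a log2 ratio of 0.08 with TMM scaling and 0.02 with DESeq2 size factors, so its sign depends on the scaling. Relative to the median of all genes, which TMM moves by 0.15 on the log2 scale, the immunoproteasome set was at -0.17 and the constitutive set at 0.71. With L6F at 20 pmol the ratio was 1.20 (1.14 to 1.26). Of the 5 genes, 1 was called higher (Psmb9) and 1 lower (Psmb10) with M9C at 20 pmol, and 1 higher (Psmb9) and 0 lower with L6F at 20 pmol. These counts are near the shares of all genes, 27.3% higher and 22.9% lower with M9C and 25.0% and 21.8% with L6F. In cells of 1000 to 2000 UMIs both sets moved alike with L6F. The immunoproteasome set was at 1.62 (1.40 to 1.87) and 1.45 (1.24 to 1.69) at 80 and 20 pmol, and the constitutive set at 1.49 and 1.46. With M9C in these cells they were at 0.647 and 1.51 at 20 pmol, and at 1.40 and 1.55 at 2 pmol.

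**Figure D2:**
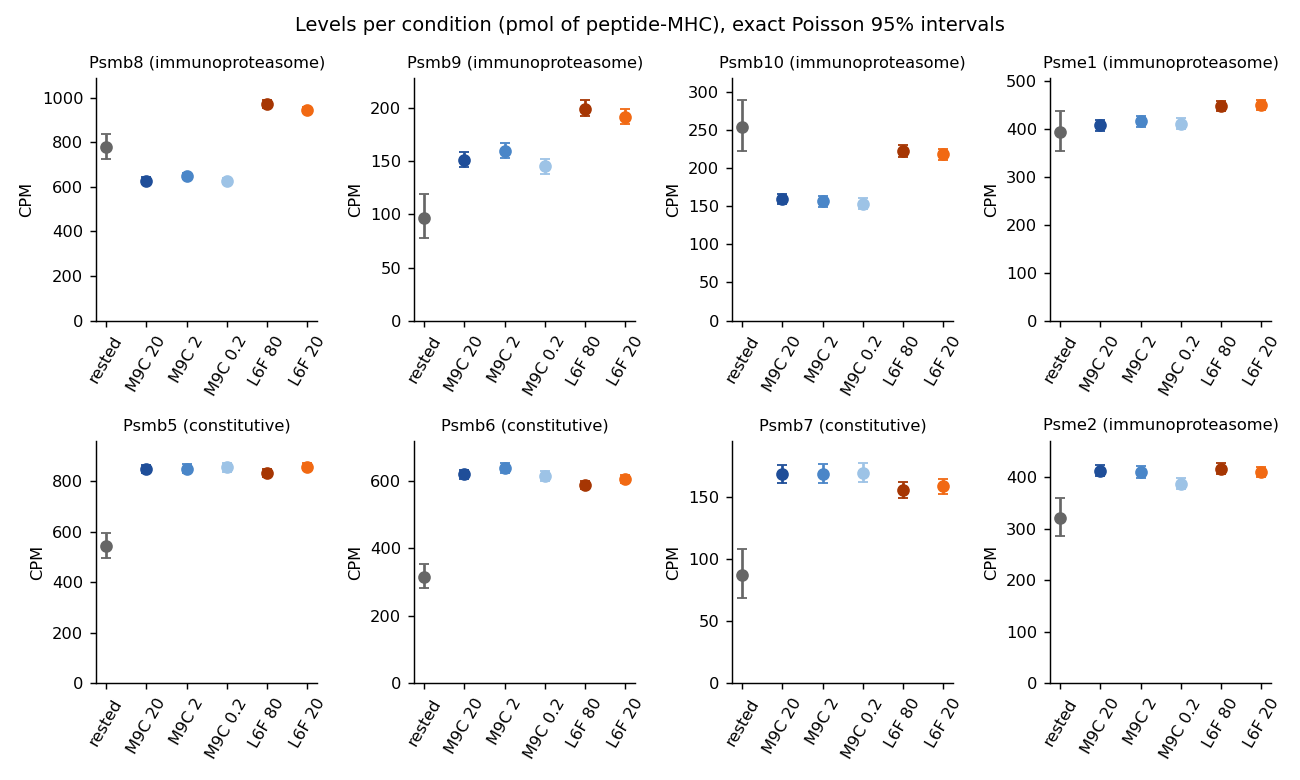
CPM (y axis, from 0) of the 5 immunoproteasome genes and of the 3 constitutive catalytic genes in the 6 conditions (x axis, pmol), 1 culture each, with exact Poisson 95% intervals. Psmb8, Psmb9 and Psmb10 are lower in the 3 M9C conditions than in both L6F conditions, whereas Psmb5, Psmb6 and Psmb7 stand at like levels in all 5.

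Psmb8, the immunoproteasome counterpart of Psmb5, had 716 UMIs in rested cells, or 779 CPM. It stood at 628, 649 and 625 CPM with M9C at 20, 2 and 0.2 pmol and at 971 and 944 CPM with L6F at 80 and 20 pmol. Each M9C value was below the rested one and each L6F value above it, with all intervals excluding 1 and none reaching 1.5-fold: the ratios were 0.806 (0.747 to 0.871), 0.833 and 0.803 with M9C, and 1.25 and 1.21 (1.12 to 1.31) with L6F. With a minimum of 1000 genes per cell its log2 ratios at 20 pmol moved from -0.31 to -0.07 with M9C and from 0.28 to 0.51 with L6F, while M9C over L6F was at -0.59. In cells of 2000 to 4000 UMIs the ratios to rested cells were 0.811 (0.636 to 1.05), 0.818 (0.640 to 1.06) and 0.899 (0.703 to 1.16) with M9C at 20, 2 and 0.2 pmol, with intervals that all include 1, and 1.31 (1.04 to 1.68) and 1.26 (0.997 to 1.61) with L6F at 80 and 20 pmol. In cells of 1000 to 2000 UMIs M9C stood at 0.402 (0.223 to 0.671) at 20 pmol and 1.23 (0.840 to 1.75) at 2 pmol. Psmb9, the counterpart of Psmb6, stood at 96.9 CPM in rested cells, at 152, 160 and 145 CPM with M9C at 20, 2 and 0.2 pmol, and at 200 and 192 CPM with L6F at 80 and 20 pmol. All stimulated values were above the rested one, with L6F highest, at ratios of 1.57 (1.27 to 1.96) for M9C and 1.98 (1.60 to 2.47) for L6F at 20 pmol. It was called higher in 4 of 5 comparisons, M9C at 0.2 pmol being the exception. With a minimum of 1000 genes per cell the log2 ratios of Psmb9 became -0.06 and 0.28, against only 47 rested cells.

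Psmb10, the counterpart of Psmb7, went the other way, at 254 CPM in rested cells, 159, 156 and 153 CPM with M9C at 20, 2 and 0.2 pmol, and 222 and 218 CPM with L6F at 80 and 20 pmol. It was the only member called lower than in rested cells, in each of the 3 M9C comparisons and in neither L6F comparison, with a ratio of 0.627 (0.547 to 0.721) for M9C and 0.860 (0.753 to 0.986) for L6F at 20 pmol. With TMM scaling its log2 ratios were -0.53, -0.55 and -0.59 at 20, 2 and 0.2 pmol of M9C, so that the calls at 20 and 2 pmol ended. In cells of 2000 to 4000 UMIs the ratio was 0.813 (0.512 to 1.35) at 20 pmol, and the intervals at all 3 amounts included 1. As UMIs per cell, where all stimulated cells hold more RNA, it was higher with M9C by 1.83 on the log2 scale. Of the PA28 genes, Psme1 stood at 395 CPM in rested cells, 408 to 416 CPM with M9C and 448 to 450 CPM with L6F. Psme2 stood at 322 CPM in rested cells, 388 to 413 CPM with M9C and 411 to 417 CPM with L6F. Neither was called in any comparison. Over all kept cells the 3 immunoproteasome catalytic genes thus had 3 different patterns against rested cells, and a common order of M9C below L6F. In cells of 2000 to 4000 UMIs these patterns were not apart. At 20 pmol Psmb9 was there at 0.866 (0.540 to 1.46) with M9C and 1.06 (0.673 to 1.76) with L6F. Psmb10 was at 1.15 (0.736 to 1.88) with L6F. All 3 genes thus had M9C under 1 and L6F above it at 20 pmol, with intervals that included 1. In cells of 1000 to 2000 UMIs Psmb9 was at 2.19 (0.940 to 4.53) with M9C and 3.75 (2.19 to 6.29) with L6F.

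The UMIs of an immunoproteasome gene over those of its constitutive counterpart in the same cells do not move with the scaling to a common total. Their absolute size depends on how well each transcript is captured, so only differences between conditions are read here. For the 3 genes summed, the ratio was 1.19 (1.09 to 1.31) in rested cells, 0.574, 0.582 and 0.564 with M9C at 20, 2 and 0.2 pmol, and 0.883 and 0.835 with L6F at 80 and 20 pmol. The intervals of rested, M9C and L6F cells did not overlap. Psmb8 over Psmb5 was 1.43 in rested cells, 0.732 to 0.764 with M9C and 1.10 to 1.17 with L6F, and Psmb10 over Psmb7 was 2.91, 0.902 to 0.941 and 1.37 to 1.43. Psmb9 over Psmb6 differed less, at 0.306 (0.238 to 0.389) in rested cells, 0.237 to 0.250 with M9C and 0.317 to 0.339 with L6F. In cells of 2000 to 4000 UMIs the summed ratio was 1.01 in 41 rested cells, 0.584 to 0.652 with M9C, and 0.983 and 0.914 with L6F at 80 and 20 pmol. In cells of 1000 to 2000 UMIs it was 1.31 in 415 rested cells, 0.534 and 0.797 with M9C at 20 and 2 pmol (29 and 22 cells), and 1.56 and 1.72 with L6F at 80 and 20 pmol (49 and 47 cells). The order of rested cells and L6F thus differed between depth ranges, while M9C was the lowest in both. The PA28 alpha and beta genes over the other activators showed the same order, from 8.34 (6.60 to 10.7) in rested cells to 4.94 to 5.15 with M9C and 6.04 to 6.31 with L6F. The 19S subunits over the alpha ring moved little, from an interval of 1.40 to 1.60 in rested cells to values of 1.43 to 1.47 with M9C and 1.35 to 1.38 with L6F.

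**Figure D3:**
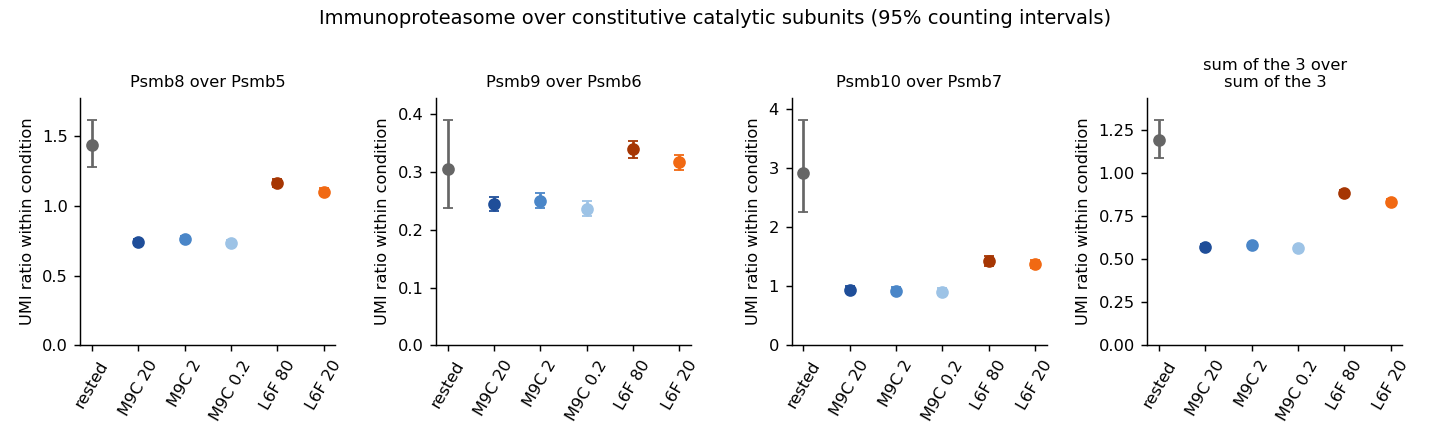
UMIs of each immunoproteasome catalytic gene over those of its constitutive counterpart (y axis, from 0) in the 6 conditions (x axis, pmol), with 95% counting intervals. The summed ratio is 1.19 in rested cells, 0.564 to 0.582 with M9C and 0.835 to 0.883 with L6F.

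The direct comparison of M9C and L6F at a matched amount, 20 pmol, does not use the rested cells. The constitutive set stood at nearly the same level, with a summed ratio of M9C over L6F of 1.01 (1.00 to 1.01) and 0 of 41 genes called in either direction, where 2.27% of all genes were higher and 2.57% lower. The immunoproteasome set was lower with M9C, at 0.795 (0.782 to 0.808), and its 3 catalytic genes summed to 0.693 (0.678 to 0.709). Psmb8 was just past 1.5-fold, with a log2 ratio of -0.59, or 0.665 (0.648 to 0.684), and was the 1 member of 47 called. With 2.57% of all genes lower, 1 call among 47 members is near the share of all genes, as is 0 of 41. Psmb10 had a ratio of 0.729 (0.690 to 0.770), Psmb9 of 0.790 (0.746 to 0.836), and Psme1 of 0.907 (0.875 to 0.940), while Psme2 was at 1.01 (0.971 to 1.04). Over all genes the middle quartiles of log2 ratios ran from -0.10 to 0.13. Among the other members the highest were Psmc3ip at 0.21, Psmd8 at 0.19 and Psme3 at 0.19 on the log2 scale.

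**Figure D4:**
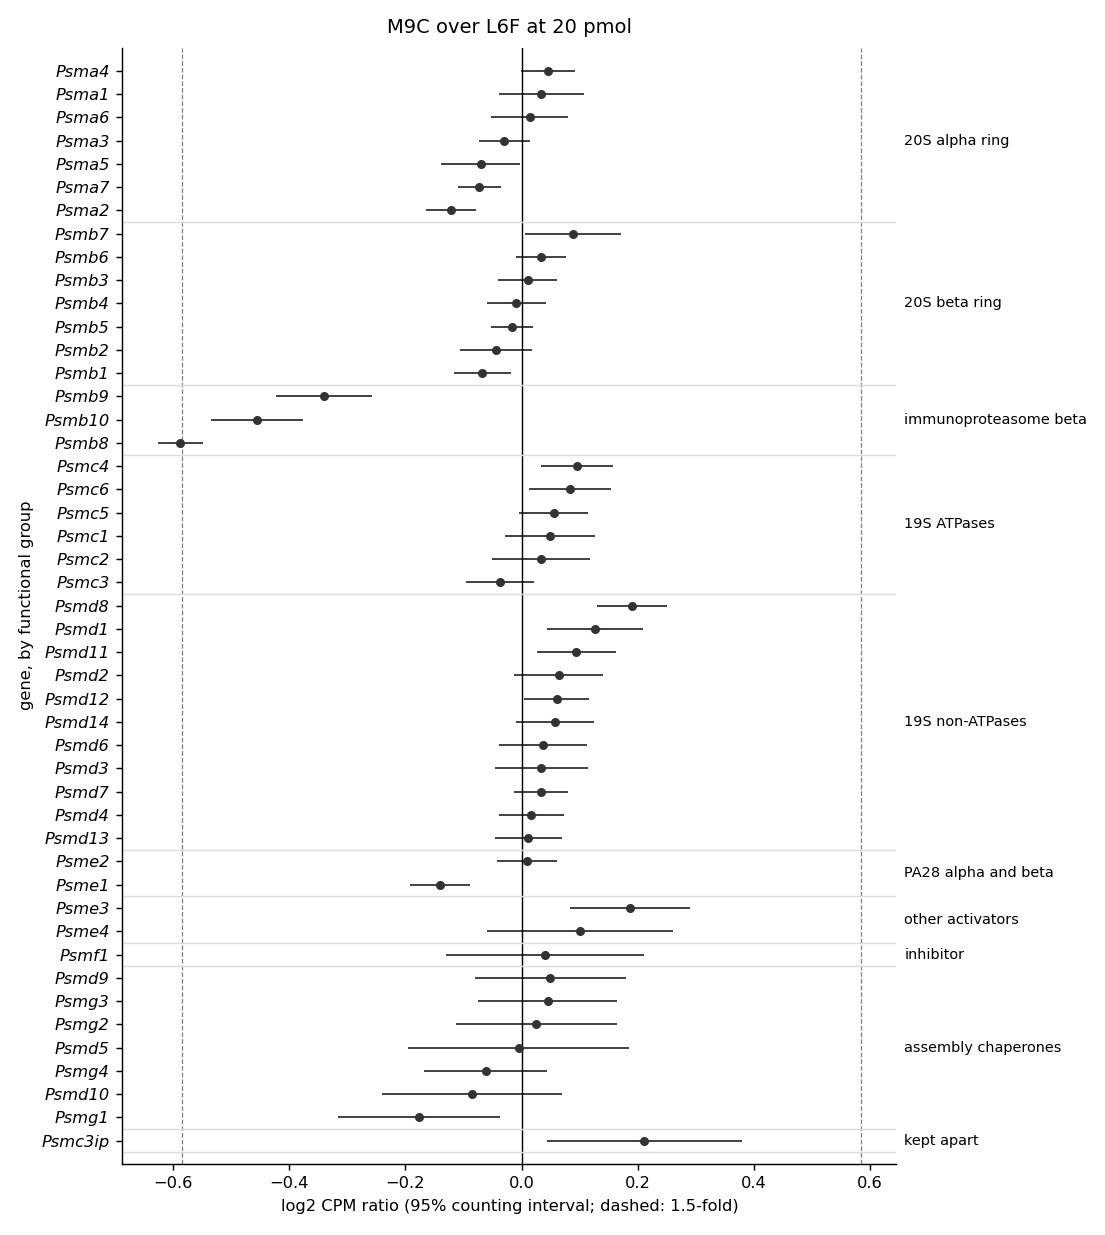
Log2 CPM ratio of M9C over L6F at 20 pmol (x axis) for each measured member (y axis, by functional group), with 95% counting intervals and 1.5-fold dashed. The 3 immunoproteasome beta genes lie between -0.59 and -0.34, and all others between -0.18 and 0.21.

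This difference kept its direction in each depth range, and its size varied. The immunoproteasome set had log2 ratios of -0.34, -0.42, -0.33 and -0.26 in cells of 2000 to 4000, 4000 to 6000, 6000 to 8000 and 8000 to 12000 UMIs, and Psmb8 had -0.63, -0.64, -0.57 and -0.54. In cells of 1000 to 2000 UMIs, of which there were 29 with M9C and 47 with L6F at 20 pmol, the set was at -1.16 (interval -1.62 to -0.73) and Psmb8 at -1.83 (-2.73 to -1.03). Lyz2, which marks myeloid cells, was at 0.774 CPM with M9C and 14.9 CPM with L6F at 20 pmol, and Trdc at 57.7 and 90.4 CPM. Of the other macrophage or monocyte markers, Cd68 went the other way, at 1.94 and 1.62 CPM. Csf1r stood at 0.0774 and 0.187 CPM and Adgre1 at 0 and 0.0624 CPM, so the difference in that list rested on Lyz2. With a CD8 marker and at most 1 UMI of other types required, the log2 ratio of Psmb8 was -0.57, that of Psmb10 -0.47 and that of Psmb9 -0.37. The call of Psmb8 ended there, and in cells of 6000 to 8000 and 8000 to 12000 UMIs, since each value was inside 1.5-fold.

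Within M9C and within L6F, no member was called between amounts in all kept cells. None of the 47 measured genes was called between M9C at 20 and 2 pmol (0.230% of all genes higher, 0.0864% lower), 2 and 0.2 pmol (0.302% and 0.316%), 20 and 0.2 pmol (0.832% and 0.488%), or L6F at 80 and 20 pmol (0.0863% and 0.0575%). The log2 ratios of single members ran from -0.16 to 0.17 over these 4 comparisons. Psmg2 was the highest, at 1.12 (1.01 to 1.25) for 2 over 0.2 pmol of M9C, and Psmg4 the lowest, at 0.897 (0.830 to 0.969) for 20 over 2 pmol. Over the 100-fold span of M9C, the constitutive sum had a ratio of 0.986 (0.979 to 0.994) and the immunoproteasome sum 1.02 (1.00 to 1.04). In the few cells of 1000 to 2000 UMIs, M9C at 20 over 2 pmol (29 and 22 cells) was at 0.461 (0.324 to 0.650) for the immunoproteasome set and 0.327 (0.165 to 0.616) for Psmb8, past 1.5-fold, whereas in cells of 2000 to 4000 UMIs these ratios were 1.04 (0.964 to 1.13) and 0.991 (0.870 to 1.13). In the same shallow cells Psmb10 had a ratio of 2.15 (1.15 to 4.22) for L6F at 80 over 20 pmol. For Psmb8 in all kept cells the order of levels was L6F at 80 pmol, L6F at 20 pmol, rested cells, then M9C at 2, 20 and 0.2 pmol. The 2 L6F values differed by a ratio of 1.03 (1.00 to 1.05) and the highest and lowest M9C values by 1.04 (1.00 to 1.07), both small beside the gap between M9C and L6F.

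Single cells were compared after each was thinned to 1000 UMIs, which left 464 rested cells (291 were shallower) and 1586 to 2467 cells in the stimulated conditions (3 to 10 left out). The mean number of constitutive UMIs was 6.49 per thinned rested cell, with quartiles of 5 and 8, against 11.6, 11.8 and 11.8 with M9C at 20, 2 and 0.2 pmol, and 11.5 and 11.5 with L6F at 80 and 20 pmol, with quartiles of 9 and 14 in each. Unthinned, the means were 8.20 in rested cells and 72.6 to 85.8 in stimulated cells. The immunoproteasome set had a mean of 1.88 in thinned rested cells, 1.72 to 1.77 with M9C and 2.23 to 2.28 with L6F (unthinned 2.25, 12.2 to 12.6 and 14.1 to 14.3). The whole distribution of constitutive UMIs stood higher in stimulated cells, with a variance 1.06 to 1.24 times the mean in every condition, close to that of counting alone. Across cells of 1 condition the sums of both sets had a Pearson r between -0.02 and 0.09, over 464 to 2467 cells that share 1 culture and 1 depth, too weak to be read as a relation at these counts.

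**Figure D5:**
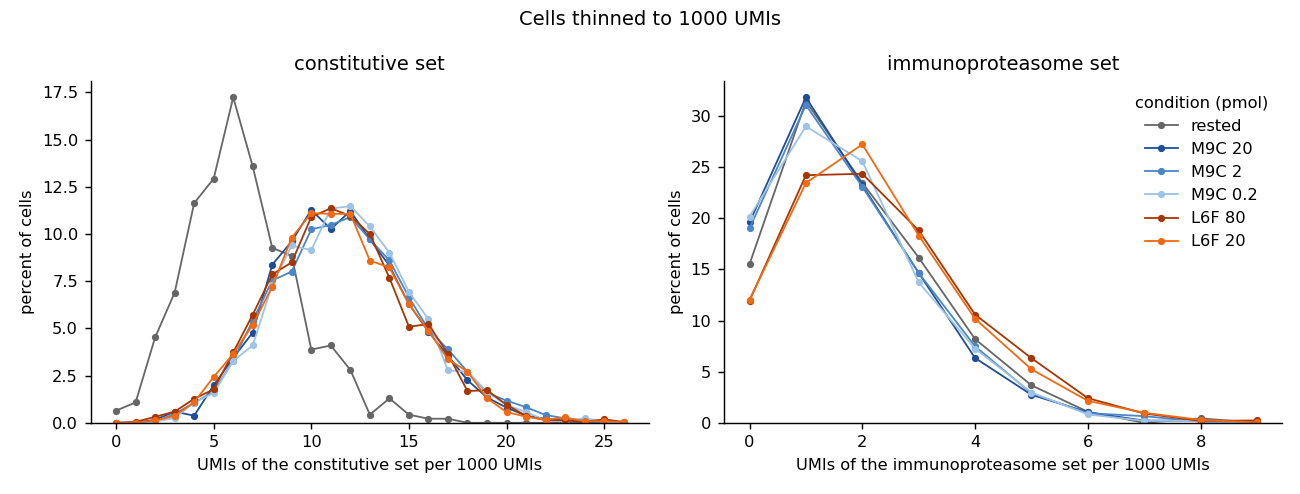
Percent of cells (y axis) by the number of UMIs of each set (x axis) in cells thinned to 1000 UMIs, 1 line per condition. The constitutive set peaks at 6 in rested cells and at 10 to 12 in stimulated cells; for the immunoproteasome set both L6F lines lie right of the M9C lines.

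Genes that work with the proteasome but lie outside its symbols were followed in 3 lists. Of 15 measured partners, 7 were called higher and 2 lower with M9C at 20 pmol (median log2 ratio 0.39), and 6 higher and 1 lower with L6F at 20 pmol (median 0.34). Of all genes 27.3% were higher and 22.9% lower with M9C, and 25.0% and 21.8% with L6F. Uchl5, a deubiquitinase of the 19S cap, stood at 47.9 CPM in rested and 182 to 192 CPM in stimulated cells, a ratio of 3.92 (2.91 to 5.40) with M9C at 20 pmol. Txnl1, a thioredoxin-like protein bound to the cap, had a ratio of 2.54 (2.16 to 3.01). Pomp, the chaperone of beta ring assembly, stood at 299 and 574 to 622 CPM. Ngly1, the glycanase that helps activate the transcription factor Nfe2l1, was lower, at 97.9 CPM in rested cells, 40.3 to 40.8 CPM with M9C and 56.5 to 62.2 CPM with L6F. Nfe2l2 was also called lower with M9C at 20 pmol, at 0.570 (0.428 to 0.774), while Nfe2l1, which drives proteasome genes when the proteasome is inhibited, was called higher at 1.59 (1.12 to 2.35).

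Of 17 measured genes of the ubiquitin and shuttle list, 5 were called higher and 0 lower with M9C at 20 pmol (median 0.31), where 27.3% of all genes were higher and 22.9% lower, so the share higher was near that of all genes. Ubqln4, a shuttle factor, had a ratio of 2.38 (1.38 to 4.51) and Vcp, the segregase that extracts ubiquitylated proteins, 2.12 (1.83 to 2.45). The ubiquitin genes Ubb and Rps27a were at 0.826 (0.771 to 0.887) and 0.834 (0.810 to 0.858). Of 10 interferon-linked and MHC class I genes, 1 was called higher and 4 lower with M9C at 20 pmol (median -0.45), and 3 higher and 2 lower with L6F at 20 pmol (median -0.28). Of all genes 27.3% and 22.9% were higher and lower with M9C, and 25.0% and 21.8% with L6F, near the counts of this list with L6F. B2m, the class I light chain, stood at 1048 CPM when rested and 464 to 550 CPM when stimulated. Tap1, the peptide transporter subunit, had a ratio of 1.70 (1.34 to 2.17) and Tap2, the other subunit, 0.540 (0.394 to 0.757), both with M9C at 20 pmol. Between M9C and L6F at 20 pmol none of the 10 was called, with a median log2 ratio of -0.19.

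By position on GRCm38, Psmb9 (chr17:34181987-34187764, minus strand) and Psmb8 (chr17:34197721-34201454, plus strand) lie close together in the MHC class II region. An exon of Psmb9 overlaps one of Tap1 on the opposite strand, and an exon of Psmb8 overlaps the antisense gene Gm20496. Among the constitutive counterparts, an exon of Psmb7 overlaps one of Nek6 on the opposite strand, and one of Psmb5 overlaps Mir686 on the same strand. Whether counting used strand is not given in the sources used here, so how far reads from opposite-strand overlaps were kept apart is not known. Tap1 had a ratio of 0.948 (0.890 to 1.01) for M9C over L6F at 20 pmol, beside 0.790 for Psmb9. Psmb10 (chr8:105935735-105938444, minus strand) lies on another chromosome and overlaps no exon of another gene.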

How the data were processed

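The deposited matrix gives the authors' UMI counts, gene by barcode, with hashtag counts for the same 13439 barcodes. The submitters' processing notes name bcl2fastq, Cell Ranger 6.0.1 and the build GRCm38 (mm10). A deposited table ties each hashtag to its condition. The sources used here do not give the annotation or strand setting of the counting.

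A cell took the condition of its top hashtag where that had 20 or more counts and at least 80% of the cell's hashtag counts (11671 barcodes). Cells with 500 or more genes and at most 10% mitochondrial UMIs were kept. No other doublet caller was run, and 18.2% of cell pairs would join cells of 1 condition, which hashtags cannot show. Each condition's UMIs were added up over its cells and divided by their total for CPM. Ratios have exact Clopper-Pearson 95% intervals and levels exact Poisson ones (Python 3.11.15, scipy 1.17.1). The ratio intervals were tested on simulated Poisson counts, which hold counting error alone. The intervals are computed from summed UMIs of 1 culture per condition. They leave out variation between cells and between cultures and so cover counting error only.

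The text names the immunoproteasome genes, their counterparts, Psme3, Psme4, Psmf1 and Psmc3ip, the highest and lowest member of each functional group for M9C at 20 pmol over rested cells, members among the 3 highest or lowest of other comparisons, and the 2 highest and 2 lowest genes of each list. Genes named as called or not called, Nfe2l1, Pomp and Tap1 beside Psmb9 were added after their values were seen. Some genes under this rule and among the cell markers are not reported here. The members and lists were chosen with earlier results of these data known. Of 18 symbols in the partner list 15 matched and of 18 in the ubiquitin list 17, since older symbols stand there beside current ones and Paaf1 was not matched.

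Alternatives were HTODemux (Seurat 5.3.0, quantile 0.99), no filter on cells, 1000 or more genes, dropping cells with over 3 times their condition's median UMIs, marker-selected cells, thinning to 1000 UMIs, UMIs per cell, TMM (edgeR 4.0.16), DESeq2 1.42.0 size factors, other CPM minimums, 2-fold, and cells of like depth, the last chosen after seeing the data. Positions come from GENCODE vM21 and promoters from RefSeq (GRCm38.p6).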

Additional observations from a re-analysis of the deposited data

Results flagged for a closer look

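Psmb8 was the 1 measured member that lay, over all kept cells, below rested cells in every M9C condition and above them in both L6F conditions with all 5 intervals excluding equality. Its log2 CPM ratios to rested cells were -0.31, -0.26 and -0.32 with M9C at 20, 2 and 0.2 pmol, and 0.32 and 0.28 with L6F at 80 and 20 pmol. With 1 culture per condition the difference between M9C and L6F was not tested, and all 5 ratios share the same rested cells. With a minimum of 1000 genes per cell, which left 47 rested cells, the ratios at 20 pmol were -0.07 with M9C and 0.51 with L6F. In cells of 2000 to 4000 UMIs the intervals of all 3 M9C ratios and of L6F at 20 pmol included equality, and in cells of 1000 to 2000 UMIs M9C at 2 pmol was on the other side, at 0.30.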

How the results depend on the processing

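Values are log2 ratios unless counts are named, and in all kept cells the constitutive set was at 0.81 with M9C and 0.80 with L6F at 20 pmol over rested cells. With 1000 or more genes per cell it was 0.47 and 0.46, the catalytic ratio for M9C at 20 pmol over rested cells was -0.63, and 16, 16, 16, 9 and 12 members were called higher with M9C at 20, 2 and 0.2 pmol and L6F at 80 and 20 pmol. There Psmb7 turned to -0.082, -0.081 and -0.076 with M9C at 20, 2 and 0.2 pmol and to -0.20 and -0.17 with L6F at 80 and 20 pmol, Psmb9 to -0.062 with M9C at 20 pmol, and Psmc3ip to -0.050 with M9C at 0.2 pmol and -0.060 and -0.12 with L6F at 80 and 20 pmol. This setting left 47 rested cells with 145311 UMIs, so the turned values rest on few rested counts. Beyond that the cause was not tested. At 2-fold the counts were 14, 17, 15, 13 and 13 in the same order. The share of all genes called was not computed at 2-fold or with 1000 or more genes per cell. These counts are therefore not read as a change particular to the members.

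For M9C and L6F at 20 pmol over rested cells, the constitutive set was 0.72 and 0.70 with HTODemux, 0.85 and 0.84 with no filter on cells, 0.86 and 0.85 without the largest cells, 0.96 and 0.96 with TMM, and 0.90 and 0.89 with DESeq2 size factors. The immunoproteasome set was 0.019 and 0.35 with HTODemux, 0.079 and 0.42 with TMM, and 0.018 and 0.36 with DESeq2. With HTODemux the catalytic ratio for M9C was -0.87. In cells of 1000 to 2000 UMIs the constitutive set was 0.59 and 0.55 and the immunoproteasome set -0.63 and 0.53, but 0.49 (0.16 to 0.80) with M9C at 2 pmol, so that the M9C amounts went opposite ways there. In cells of 2000 to 4000 UMIs they were 0.50 and 0.50, and -0.19 and 0.15.

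As UMIs per cell, all 47 measured members were called higher in each comparison with rested cells. Total UMIs per cell were themselves 2.36 to 2.56 higher in stimulated cells. The share of all genes called on this scale was not computed, so the count is not read as a result about the members. Psmb10 turned to 1.83 at each M9C amount, the constitutive set was 3.32 with M9C and 3.21 with L6F at 20 pmol, and the immunoproteasome set 2.44 and 2.67. For M9C over L6F the constitutive set was then 0.11 and the immunoproteasome set -0.24, for M9C at 20 over 0.2 pmol -0.071 and -0.021, and for L6F at 80 over 20 pmol -0.062 and -0.021. For M9C over L6F at 20 pmol the constitutive set was also -0.0033 with TMM, -0.0014 in cells of 2000 to 4000 UMIs and 0.00035 at 6000 to 8000 UMIs. The immunoproteasome set was -0.38 after thinning, -0.42 at 4000 to 6000 UMIs and -0.26 at 8000 to 12000 UMIs. After thinning, M9C at 20 over 0.2 pmol was -0.031 for the constitutive set and -0.016 for the immunoproteasome set.

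With 1 culture per condition no replicate could be left out. The rested library sets the precision: 3 UMIs there are 3.26 CPM, against 0.187 to 0.264 CPM in stimulated conditions.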
